A study of Mus musculus with 12 samples.

Results

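The genes described here are 10 members of the tumor necrosis factor (TNF) superfamily that serve as costimulatory ligands or receptors on T cells. They were listed by symbol, and all 10 are among the 12809 genes of the expression table. The ligands are *Cd40lg*, *Tnfsf8*, *Tnfsf11* and *Tnfsf14*, and the receptors are *Tnfrsf4*, *Tnfrsf18*, *Tnfrsf9*, *Tnfrsf1b*, *Tnfrsf25* and *Cd27*. RNA came from LN T cells of B6 (C57BL/6) and FlipFlop mice, sorted into CD4 and CD8 fractions and sequenced as 4 groups of 3 libraries. All mice were female, aged 10 weeks in both B6 groups and 14 weeks in both FlipFlop groups, so that strain and age cannot be told apart. In FlipFlop mice the *Cd4* locus encodes CD8 proteins and the *Cd8a* locus encodes CD4, which asks whether a T cell's program follows the locus or the coreceptor protein. Both altered loci were carried together on the same chromosome, and the altered *Cd8a* locus came from 129R1 embryonic stem cells, whereas the altered *Cd4* locus was made in B6 cells. FlipFlop CD8 and B6 CD4 T cells, whose coreceptor is encoded in *Cd4*, are called helper lineage below. FlipFlop CD4 and B6 CD8 T cells, whose coreceptor is encoded in *Cd8a*, are called cytotoxic lineage. The labels do not say that replicates came from separate mice, so p-values measure the spread between these libraries.

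Ligands of the TNF superfamily are mostly membrane proteins that act as trimers and cluster their receptors on a neighboring cell. Costimulatory receptors of the family bind TRAF adaptors and turn on NF-κB, which supports survival and division of activated T cells. CD40 ligand on helper T cells licenses B cells and dendritic cells through CD40, while OX40 (*Tnfrsf4*), GITR (*Tnfrsf18*), 4-1BB (*Tnfrsf9*), TNFR2 (*Tnfrsf1b*) and DR3 (*Tnfrsf25*) are known on activated T cells and on regulatory T (Treg) cells. CD27 is a receptor of resting T cells.

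The genes of 6 of the 10 members lie on chromosome 4 (GENCODE M21, GRCm38), where *Tnfrsf4* (156013843 to 156016612) and *Tnfrsf18* (156026164 to 156028895) stand 9552 bases apart. *Cd27* lies on chromosome 6, at 0.344 Mb from *Cd4* and 53.9 Mb from *Cd8a*, which are the loci changed in FlipFlop mice. *Cd40lg* is on chromosome X, *Tnfsf11* on 14 and *Tnfsf14* on 17. RefSeq promoter sequences (GRCm38.p6) were matched for 9 of the 10 members, at 11 transcription starts, and the 250 bases before each start were searched. The searches covered TGTGGT (Runx, since Runx3 is the factor of cytotoxic T cells) and TGANTCA (AP-1, a factor of T cell activation), on both strands, and neither motif contains the other. Of the 11 member promoters, 1 held TGTGGT, which 14.0% of 32851 promoters hold. TGANTCA was in 2 of the 11 and in 6.75% of all promoters. A match is a description of letters only. The windows of 4 members are printed to set different patterns side by side: *Tnfrsf25* with the Runx letters at base -92 before the start, *Tnfsf14* with the AP-1 letters at base -160, *Tnfsf11* with neither and a large lineage difference, and *Cd27* with neither and no lineage difference called. Capitals mark the match, read on the gene's strand, and the windows are chr4:152115684-152115933 (plus strand), chr17:57194182-57194431 (minus), chr14:78308044-78308293 (minus) and chr6:125237028-125237277 (minus).
Tnfrsf25: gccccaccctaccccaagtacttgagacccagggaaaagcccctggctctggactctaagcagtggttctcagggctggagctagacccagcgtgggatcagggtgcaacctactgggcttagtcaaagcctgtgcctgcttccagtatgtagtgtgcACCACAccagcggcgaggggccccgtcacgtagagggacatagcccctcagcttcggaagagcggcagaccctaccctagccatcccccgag
Tnfsf14: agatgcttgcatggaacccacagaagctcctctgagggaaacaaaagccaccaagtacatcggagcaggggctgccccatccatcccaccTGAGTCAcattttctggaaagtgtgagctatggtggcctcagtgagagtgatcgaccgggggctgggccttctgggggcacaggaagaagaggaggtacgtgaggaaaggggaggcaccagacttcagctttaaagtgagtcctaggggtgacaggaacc
Tnfsf11: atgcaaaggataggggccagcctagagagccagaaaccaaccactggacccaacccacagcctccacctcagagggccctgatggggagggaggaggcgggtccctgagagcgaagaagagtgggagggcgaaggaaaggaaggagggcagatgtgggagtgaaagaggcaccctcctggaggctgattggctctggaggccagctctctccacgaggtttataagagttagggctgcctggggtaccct
Cd27: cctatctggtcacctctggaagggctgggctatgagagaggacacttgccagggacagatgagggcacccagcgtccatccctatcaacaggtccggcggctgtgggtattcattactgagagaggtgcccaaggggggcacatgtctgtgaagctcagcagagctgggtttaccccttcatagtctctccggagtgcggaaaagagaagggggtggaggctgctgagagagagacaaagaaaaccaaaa

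Values are CPM, that is read counts set to a common library total, scaled by TMM, a factor for library composition. Reads on the listed genes were estimated, from the steps between low values, at about 26600000 to 33100000 per library. By this estimate 3 reads, the most a count of 0 allows for, equal 0.0857 to 0.120 CPM (counting error only). *Zbtb7b*, which encodes the helper-lineage factor ThPOK, was at 162 to 203 CPM in the 6 helper-lineage libraries and at 1.16 to 2.79 in the others. *Cd4* was at 961 to 1090 CPM across B6 CD4 and 637 to 719 in FlipFlop CD4 libraries. It was at 0.60 to 2.40 in B6 CD8 and 40.9 to 43.6 in FlipFlop CD8 libraries. *Cd8a* was at 1472 to 1500 CPM in B6 CD8 and 138 to 159 in FlipFlop CD8 libraries. Its levels were 0.420 to 1.59 in B6 CD4 and 0.854 to 0.967 in FlipFlop CD4 libraries. *Cd8b1* did not follow the sorted coreceptor in FlipFlop mice, at 1639 to 1962 CPM in CD4 and 125 to 151 in CD8 libraries. In B6 mice *Cd8b1* was at 20.7 to 28.1 in CD4 and 1839 to 1924 in CD8 libraries. T cell marker genes (6 of 6) summed to 3015 to 4303 CPM, those of B cells (8 of 8) to 39.8 to 74.8, of myeloid cells (5 of 8 analysed) to 6.66 to 29.1 and of NK cells (3 of 5 analysed) to 11.9 to 94.1, where *Eomes*, which T cells express too, held 42.2 to 91.8 CPM in the cytotoxic-lineage libraries. None of these markers was at 0 in a library. The root mean square log2 distance of a library from the others of its group was 0.250 to 0.351, except 0.404 for B6 CD4 replicate 1. Without that library the calls among all genes moved too, so member counts are given with them. For B6 CD4 against CD8, members called went from 6 to 7 and genes from 2944 to 3210, and for FlipFlop CD4 against CD8 members stayed at 9 while genes went from 3633 to 4419. For FlipFlop CD8 against B6 CD4 members stayed at 6 while genes went from 3196 to 2114, and for FlipFlop CD4 against B6 CD8 members went from 3 to 4 and genes from 918 to 1566. In the lineage effect members went from 8 to 9 and genes from 4554 to 5229, and in the coreceptor effect members from 4 to 5 and genes from 636 to 591. Both effects are defined with the results.

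Most of the members were higher in the helper lineage of both strains, whichever coreceptor the cells carried. Over 11595 genes tested with limma on log2(CPM + 0.5), a gene was called at a Benjamini-Hochberg adjusted p under 0.05. All 10 members passed the filter on low values. In the B6 comparison of CD4 with CD8 T cells, 6 of 10 members were higher in CD4 cells and 0 lower, where 14.6% of all tested genes were higher and 10.8% lower. In FlipFlop mice the direction turned over, with 9 members lower in CD4 than in CD8 T cells and 0 higher, against 16.0% of all genes lower and 15.3% higher. The lineage effect, which is the mean of both helper-lineage groups minus the mean of both cytotoxic-lineage groups, was higher for 8 members and lower for 0, against 19.9% and 19.4% of all genes. The coreceptor effect, the mean of both CD4 groups minus the mean of both CD8 groups, was higher for 2 members and lower for 2, against 1.71% and 3.78%. The median log2 difference of the members was 1.04 in B6, -1.20 in FlipFlop and 1.16 in the lineage effect, where the medians of all tested genes were -0.0038, 0.036 and -0.025. These comparisons share libraries and are not independent of each other. The members were chosen with earlier results of these data known, so the shares of all genes describe the background and are no test of the list. In bulk RNA, fewer cells that express a gene and less of its RNA per cell cannot be told apart.

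**Figure D1:**
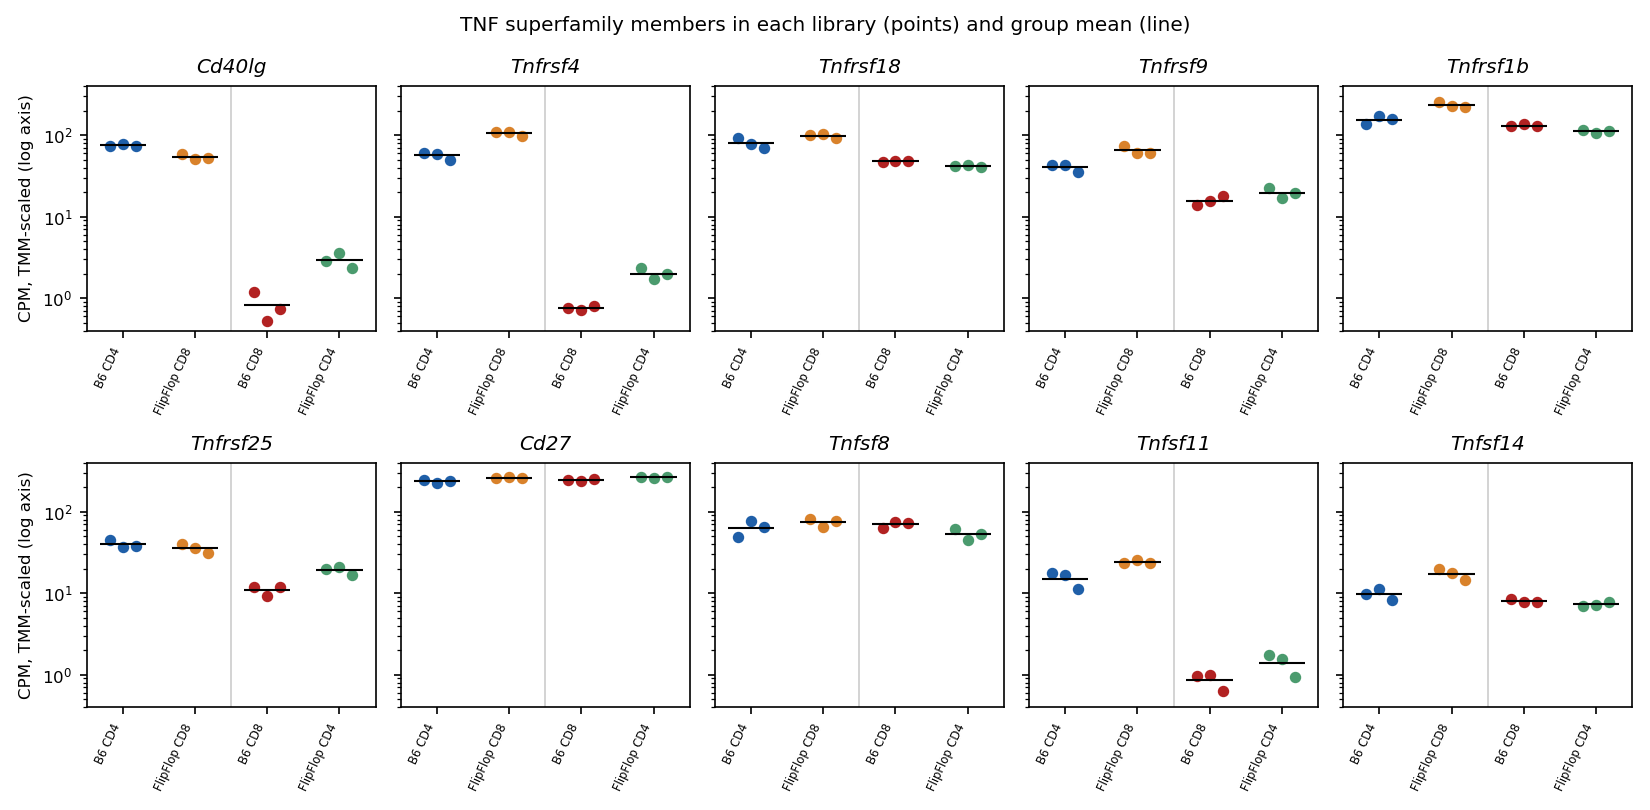
CPM of the 10 members (log axis) in each library, with 3 points per group and a line at the group mean; helper-lineage groups stand left of the vertical line and cytotoxic-lineage groups right of it. The helper-lineage libraries all lie above the cytotoxic-lineage ones for 7 members, and the 12 libraries of *Cd27* lie between 227 and 267 CPM.

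For 7 members the 6 helper-lineage libraries all lay above the 6 cytotoxic-lineage libraries, as for 9.90% of tested genes. No member (0 of 10) had all helper-lineage libraries below, as for 7.00% of tested genes. The members without such a gap were *Cd27*, *Tnfsf8* and *Tnfsf14*.

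Among the ligands, *Cd40lg* had the widest range. CD40 ligand is the signal by which helper T cells drive germinal centers and antibody class switching. The *Cd40lg* levels were 72.7, 77.9 and 74.4 CPM across B6 CD4 and 58.6, 51.3 and 52.8 CPM in FlipFlop CD8 libraries, against 1.2, 0.520 and 0.729 CPM in B6 CD8 and 2.82, 3.59 and 2.38 CPM in FlipFlop CD4 libraries. The 4 groups did not overlap, and their order was B6 CD4, FlipFlop CD8, FlipFlop CD4 and B6 CD8. On the linear scale B6 CD4 exceeded B6 CD8 T cells 91.9-fold, and FlipFlop CD8 exceeded FlipFlop CD4 T cells 18.5-fold. The log2 CD4 minus CD8 difference was 5.87 ± 0.17 (SE, n = 3 per group, adjusted p = 2.50e-10) in B6 and -4.01 ± 0.17 (adjusted p = 7.66e-09) in FlipFlop T cells. The FlipFlop difference was thus the smaller in size, and the coreceptor effect, which is 0 where the differences are equal and opposite, was 0.93 ± 0.12 (adjusted p = 8.03e-04). Within the cytotoxic lineage *Cd40lg* rose in FlipFlop CD4 over B6 CD8 T cells by 1.40 ± 0.17 on the log2 scale (adjusted p = 2.37e-04). Within the helper lineage the FlipFlop CD8 minus B6 CD4 difference was -0.47 (95% interval -0.83 to -0.10, adjusted p = 0.0580), just outside the threshold, and it was called with a pseudocount of 1 (adjusted p = 0.0282), with only the 6 libraries compared (0.0113), and without B6 CD8 replicate 1 (0.0244) or 2 (0.0398).

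*Tnfsf11* encodes RANKL, known for osteoclast formation and for lymph node and thymic medulla development. Its levels were 17.6, 16.5 and 11.2 CPM across B6 CD4 and 23.8, 25.2 and 23.3 CPM across FlipFlop CD8 libraries, and 0.974, 1.0 and 0.629 CPM in B6 CD8 and 1.74, 1.56 and 0.929 CPM in FlipFlop CD4 libraries. The FlipFlop CD8 libraries were all above the B6 CD4 ones, and both cytotoxic-lineage groups overlapped near 1 CPM. The helper-lineage group exceeded its counterpart 17.4-fold in B6 and 17.1-fold in FlipFlop mice. In log2 terms the CD4 minus CD8 difference was 3.50 ± 0.20 (adjusted p = 8.68e-08) in B6 and -3.71 ± 0.20 (adjusted p = 4.53e-08) in FlipFlop T cells, and the coreceptor effect was -0.11 (95% interval -0.41 to 0.20, adjusted p = 0.732). With 1 library left out this ranged from -0.17 (without B6 CD8 replicate 3) to -0.0095 (without FlipFlop CD4 replicate 3) and was not called.

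*Tnfsf14* encodes LIGHT, a ligand of HVEM and of the lymphotoxin β receptor. It was at 9.73, 11.1 and 8.21 CPM across B6 CD4 and 19.7, 17.6 and 14.4 CPM in FlipFlop CD8 libraries. In the cytotoxic lineage it was at 8.54, 7.88 and 7.69 CPM (B6 CD8) and 6.93, 7.14 and 7.73 CPM (FlipFlop CD4). The FlipFlop CD8 libraries stood above all others, and the other groups overlapped with their neighbors in the order. The CD4 minus CD8 difference was 0.25 ± 0.13 (adjusted p = 0.198) in B6 T cells and -1.18 ± 0.13 (adjusted p = 1.76e-05) in FlipFlop T cells. The B6 value ranged from 0.15 (without B6 CD4 replicate 2) to 0.35 (without B6 CD4 replicate 3) and was not called. The lineage effect was 0.71 ± 0.09 (adjusted p = 4.26e-05), and since it is by construction the interaction of strain and coreceptor on another scale, it also tests whether these differences are equal.

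*Tnfsf8* encodes CD30 ligand. In the order of group means, its libraries ran from 64.0 to 81.5 CPM in FlipFlop CD8, 62.2 to 75.4 in B6 CD8, 48.4 to 77.7 in B6 CD4 and 44.8 to 60.3 CPM in FlipFlop CD4 T cells. Neighbors in this order overlapped, while the FlipFlop CD4 libraries lay below all those of FlipFlop CD8 and B6 CD8. The only difference called was FlipFlop CD4 against CD8, -0.49 ± 0.16 (adjusted p = 0.0379). It was not called without FlipFlop CD8 replicate 1 (adjusted p = 0.119) or 3 (0.104), FlipFlop CD4 replicate 2 (0.151) or 3 (0.0732), or B6 CD8 replicate 3 (0.0509). Without B6 CD4 replicate 1 its lineage effect was called as well, at 0.26 (adjusted p = 0.0457) against 0.17 (adjusted p = 0.290) with it, while without B6 CD4 replicate 2 it was 0.086 and not called. With same-numbered libraries fitted as blocks, its lineage effect (0.17, adjusted p = 0.0404) and its coreceptor effect (-0.32, adjusted p = 0.0122) were both called.

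**Figure D2:**
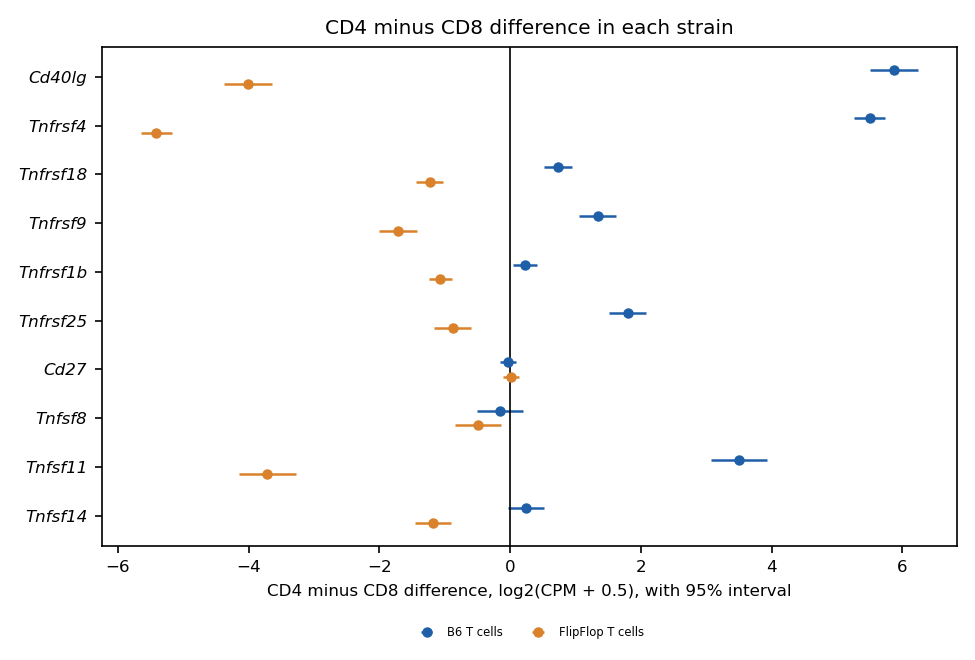
Log2 CD4 minus CD8 difference of each member, as log2(CPM + 0.5), in B6 (blue) and FlipFlop (orange) T cells, with 95% intervals from limma. The points of *Tnfrsf4* lie at 5.50 and -5.41 and those of *Tnfsf11* at 3.50 and -3.71, while for *Cd40lg* (5.87 and -4.01) and *Tnfrsf25* (1.80 and -0.87) the FlipFlop value is the smaller in size.

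Of the receptors, *Tnfrsf4* had the largest lineage effect of any member, 5.46 ± 0.08 on the log2 scale (adjusted p = 5.13e-13). OX40 sustains activated helper T cells and is carried by Treg cells of mice without stimulation. The *Tnfrsf4* levels were 60.9, 59.0 and 49.9 CPM across B6 CD4 and 110, 109 and 97.3 CPM in FlipFlop CD8 libraries, against 0.749, 0.720 and 0.795 CPM in B6 CD8 and 2.33, 1.70 and 1.97 CPM in FlipFlop CD4 libraries. No group overlapped another, and in both lineages the FlipFlop group was the higher. The helper-lineage group exceeded the cytotoxic-lineage group 75.0-fold in B6 and 52.7-fold in FlipFlop mice. The CD4 minus CD8 differences of 5.50 ± 0.11 and -5.41 ± 0.11 left a coreceptor effect of 0.05 (95% interval -0.12 to 0.22, adjusted p = 0.798), whose sign turned with a pseudocount of 1, with columns rescaled to the same sum and without FlipFlop CD4 replicate 1.

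*Tnfrsf18*, the neighbor of *Tnfrsf4*, had a smaller range. GITR costimulates effector T cells and is abundant on Treg cells. Levels of *Tnfrsf18* were 93.4, 78.4 and 68.7 CPM (B6 CD4) and 99.9, 102 and 91.3 CPM (FlipFlop CD8) in the helper lineage, against 46.1, 48.1 and 48.7 CPM (B6 CD8) and 41.4, 42.5 and 40.6 CPM (FlipFlop CD4) in the cytotoxic lineage. Unlike *Tnfrsf4* it stayed above 40 CPM in the cytotoxic lineage, and the helper-lineage groups overlapped. The differences were 0.73 ± 0.10 (adjusted p = 9.81e-05) in B6 and -1.23 ± 0.10 (adjusted p = 9.67e-07) in FlipFlop T cells. An antisense gene, Gm16008, overlaps *Tnfrsf18*, and the strand setting of the counting is not given in the sources used here.

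*Tnfrsf9* encodes 4-1BB, a receptor that supports CD8 T cell survival and marks recently activated T cells. It was at 43.4, 43.2 and 34.9 CPM across B6 CD4 and 74.0, 60.8 and 60.6 CPM across FlipFlop CD8 libraries, and at 13.9, 15.4 and 17.7 CPM in B6 CD8 and 22.3, 16.7 and 19.6 CPM in FlipFlop CD4 libraries. The helper-lineage groups were separate from each other, and the cytotoxic-lineage groups overlapped. The CD4 minus CD8 difference was 1.34 ± 0.13 (adjusted p = 9.59e-06) in B6 and -1.71 ± 0.13 (adjusted p = 8.43e-07) in FlipFlop T cells. *Camta1*, which overlaps it on the opposite strand, was at group means of 3.33 to 3.83 CPM.

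*Tnfrsf25* encodes DR3, the death-domain receptor of TL1A that costimulates T cells and expands Treg cells. The levels were 44.7, 36.8 and 37.6 CPM across B6 CD4 and 40.0, 36.2 and 30.9 CPM in FlipFlop CD8 libraries, which overlapped. In the cytotoxic lineage B6 CD8 libraries held 11.9, 9.32 and 11.9 CPM and FlipFlop CD4 libraries 19.9, 21 and 16.8 CPM, which did not overlap. The CD4 minus CD8 difference was 1.80 ± 0.13 (adjusted p = 6.34e-07) in B6 and -0.87 ± 0.13 (adjusted p = 2.39e-04) in FlipFlop T cells, with a coreceptor effect of 0.46 ± 0.09 (adjusted p = 0.0116). With *Cd40lg*, it is the other of the 2 members whose coreceptor effect was called higher. Within FlipFlop mice both were called lower in CD4 than in CD8 T cells.

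*Tnfrsf1b* encodes TNFR2, the TNF receptor through which activated T cells and Treg cells are costimulated. It was at 137, 170 and 156 CPM across B6 CD4 and 254, 227 and 223 CPM in FlipFlop CD8 libraries, against 130, 136 and 128 CPM in B6 CD8 and 115, 107 and 112 CPM in FlipFlop CD4 libraries. All 4 groups were separate, although the lowest B6 CD4 library (136.6 CPM) stood just above the highest B6 CD8 library (135.7 CPM). The difference between CD4 and CD8 T cells was 0.23 ± 0.08 (adjusted p = 0.0608) in B6 and -1.07 ± 0.08 (adjusted p = 8.66e-07) in FlipFlop mice. In B6 mice it was called without B6 CD4 replicate 1 (0.31, adjusted p = 0.00514) and with columns rescaled to the same sum (0.30, adjusted p = 0.0270). Its coreceptor effect was -0.42 ± 0.06 (adjusted p = 0.00124). With *Tnfsf14* (-0.47 ± 0.09, adjusted p = 0.0105) it made up the 2 members whose coreceptor effect was called lower. Within B6 mice neither was lower in CD4 T cells, the differences being 0.23 and 0.25. The coreceptor effect of *Tnfrsf18*, -0.25 ± 0.07 (adjusted p = 0.0562), was called lower under median-of-ratios rescaling (adjusted p = 0.0422), with columns rescaled to the same sum (0.0152) and without B6 CD4 replicate 1 (-0.30, adjusted p = 0.00455).

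*Cd27* had the smallest lineage effect of the 10 members in size, -0.02 ± 0.04 on the log2 scale. CD27 binds CD70 and supports T cell survival and memory. Its libraries ran from 227 to 245 CPM in B6 CD4, 257 to 265 in FlipFlop CD8, 237 to 249.4 in B6 CD8 and 261 to 267 CPM in FlipFlop CD4 T cells. The lineages overlapped, while all 6 FlipFlop libraries were above all 6 B6 libraries, as for 2.66% of tested genes. CD4 and CD8 T cells differed by -0.03 (95% interval -0.15 to 0.09, adjusted p = 0.739) in B6 and 0.02 (95% interval -0.10 to 0.14, adjusted p = 0.855) in FlipFlop mice. FlipFlop exceeded B6 T cells by 0.13 (95% interval 0.01 to 0.25, adjusted p = 0.0895) in the helper and 0.12 (95% interval -0.0018 to 0.24, adjusted p = 0.224) in the cytotoxic lineage. The first of these was called under median-of-ratios rescaling (0.16, adjusted p = 0.0451) and with columns rescaled to the same sum (0.30, adjusted p = 0.00303). *Vamp1*, which overlaps *Cd27* on the opposite strand, was at group means of 9.88 to 24.4 CPM.

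Next, the groups that share a lineage were compared between strains. In FlipFlop CD8 against B6 CD4 T cells 6 of 10 members were higher and 0 lower, where 13.2% of all tested genes were higher and 14.4% lower. The log2 differences called were 0.90 ± 0.11 for *Tnfrsf4* (adjusted p = 2.06e-04), 0.80 ± 0.13 for *Tnfsf14* (adjusted p = 0.00116), 0.68 ± 0.13 for *Tnfrsf9* (adjusted p = 0.00364), 0.68 ± 0.20 for *Tnfsf11* (adjusted p = 0.0256), 0.60 ± 0.08 for *Tnfrsf1b* (adjusted p = 4.10e-04) and 0.30 ± 0.10 for *Tnfrsf18* (adjusted p = 0.0381). The *Tnfrsf18* call was lost in 8 of the 12 fits that leave out a library, with adjusted p between 0.0510 and 0.125. Its value fell to 0.19 without B6 CD4 replicate 3, and it stayed at 0.30 in the 3 of these fits that leave out a library of the other groups. It was also lost with only the 6 libraries compared (adjusted p = 0.126). The call of *Tnfsf11* was lost without B6 CD4 replicate 3 (adjusted p = 0.0682) or FlipFlop CD8 replicate 2 (0.0793) or 3 (0.0659). For *Tnfrsf25* the value was -0.15 (95% interval -0.44 to 0.13, adjusted p = 0.384) and for *Tnfsf8* 0.24 (95% interval -0.11 to 0.59, adjusted p = 0.279). With 1 library left out these ranged from -0.24 to -0.056 (without FlipFlop CD8 replicate 1 and 3) and from 0.058 to 0.40 (without B6 CD4 replicate 1 and 2), and neither was called. The members' median was 0.45, against -0.0079 over all tested genes.

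Markers of Treg cells moved with the members in this comparison. All 9 Treg markers listed (*Foxp3*, *Il2ra*, *Ctla4*, *Ikzf2*, *Ikzf4*, *Nrp1*, *Lrrc32*, *Gpr83* and *Izumo1r*) were higher in FlipFlop CD8 than in B6 CD4 T cells. They summed to 614 to 742 CPM across B6 CD4 and 1374 to 1588 CPM across FlipFlop CD8 libraries, and to 62.4 to 63.8 CPM in B6 CD8 and 112 to 166 CPM in FlipFlop CD4 libraries. *Foxp3*, the transcription factor of Treg cells, was at 93.1, 128 and 103 CPM across B6 CD4 and 305, 362 and 312 CPM in FlipFlop CD8 libraries, a log2 difference of 1.60 ± 0.20 (adjusted p = 2.09e-04), more than that of any member. Follicular helper markers were higher for 3 of 5 and lower for 0, and memory or effector markers for 4 of 8 and 0. FlipFlop CD8 replicate 1 stood apart in the memory or effector markers, which summed to 606 CPM there against 313 and 318 CPM in the other FlipFlop CD8 libraries, with *Ccl5* at 164 against 15.3 and 35.8 CPM and *Klrg1* at 46.3 against 14.7 and 15.4 CPM. The same library was the highest of its group for 7 members, *Cd40lg*, *Tnfrsf4*, *Tnfrsf9*, *Tnfrsf1b*, *Tnfrsf25*, *Tnfsf8* and *Tnfsf14*. Without it 5 members were called, all higher, beside 1318 genes higher and 1592 lower of the 11595 tested, the log2 differences being 0.86 for *Tnfrsf4* (adjusted p = 0.00157), 0.70 for *Tnfsf14* (0.00582), 0.69 for *Tnfsf11* (0.0498), 0.59 for *Tnfrsf9* (0.0150) and 0.55 for *Tnfrsf1b* (0.00232). Naive T cell markers were lower for 4 of 7 and higher for 0, and T cell markers lower for 4 of 6 and higher for 0. B cell markers were lower for 4 of 7 tested, myeloid ones lower for 1 of 4 and NK ones higher for 1 of 3. The part of these cell types in the members' differences was not tested.

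Within strains, all 9 Treg and all 5 follicular helper markers were higher in CD4 than in CD8 T cells of B6 mice, and lower in FlipFlop mice. In FlipFlop CD4 T cells naive markers were higher for 5 of 7 and lower for 0, and myeloid markers lower for 4 of 4. In the lineage effect the 9 Treg markers were all higher too, and so were all 5 follicular helper markers. Higher as well were 4 of 8 memory or effector markers (1 lower), 1 of 7 B cell markers (1 lower) and 3 of 4 myeloid markers. The same held for 1 of 3 NK markers (1 lower) and 1 of 6 T cell markers (1 lower), while 3 of 7 naive markers were lower. In the coreceptor effect memory or effector markers were lower for 4 of 8, and Treg markers lower for 4 of 9 and higher for 1. Follicular helper markers were lower for 1 of 5 and NK markers for 1 of 3. Naive markers were higher for 2 of 7 and T cell markers for 2 of 6, while B cell and myeloid markers gave 0 calls. The part of these markers in the members' differences and effects was not tested either.

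In the cytotoxic lineage, FlipFlop CD4 against B6 CD8 T cells, 3 members were higher and 0 lower, where 4.17% of all tested genes were higher and 3.75% lower. They were *Cd40lg* (1.40 ± 0.17), *Tnfrsf4* (0.99 ± 0.11, adjusted p = 1.25e-04) and *Tnfrsf25* (0.78 ± 0.13, adjusted p = 0.00298). The first pair stayed far below their helper-lineage levels, at group means of 2.93 ± 0.611 and 2.0 ± 0.315 CPM (SD, n = 3) in FlipFlop CD4 T cells. *Tnfrsf25*, with a FlipFlop CD4 mean of 19.2 ± 2.2 CPM beside a B6 CD8 mean of 11.1 ± 1.5 CPM (SD, n = 3), had the largest increase in CPM of these 3. Markers moved here as well. Follicular helper markers were higher for 2 of 5 and lower for 0, memory or effector markers lower for 1 of 8, naive markers higher for 1 and lower for 1 of 7, and NK markers lower for 1 of 3, while T cell, B cell and myeloid markers gave 0 calls by limma (3 at an unadjusted p under 0.05, *Cd247*, *Ms4a1* and *Cd79b*). Their part in the members' differences was not tested. Treg markers were higher for 5 of 9 and lower for 0, with *Foxp3* libraries of FlipFlop CD4 T cells at 1.60 to 2.30 CPM, and those of B6 CD8 at 0.530 to 1.40. *Tnfrsf1b* (-0.24, adjusted p = 0.106) was called lower with only the 6 libraries compared (adjusted p = 0.0351) and without B6 CD4 replicate 1 (adjusted p = 0.0278). *Tnfsf11* was at 0.47 (95% interval 0.04 to 0.90, adjusted p = 0.183).

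**Figure D3:**
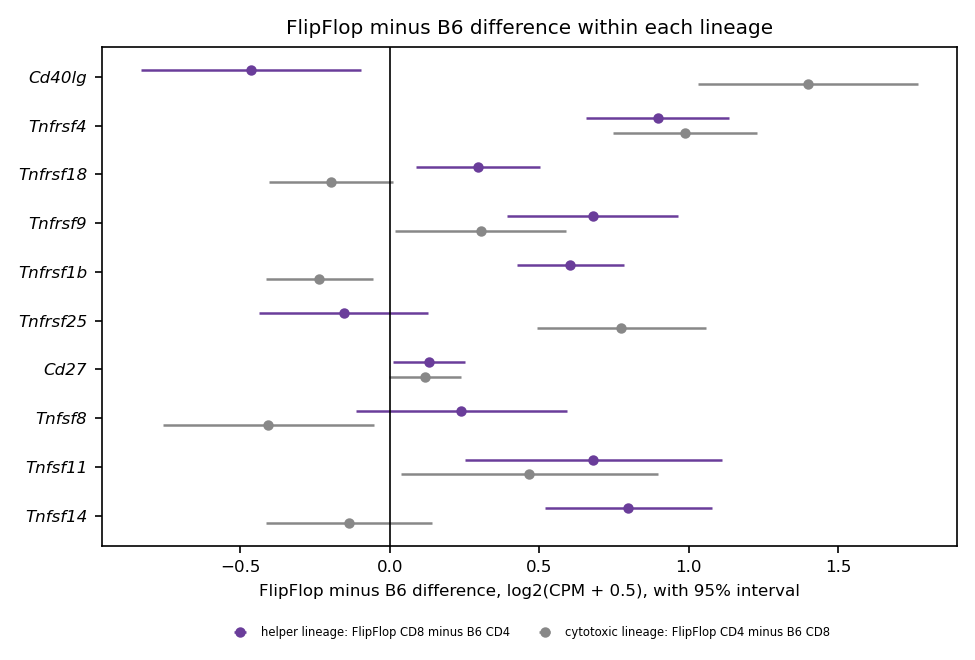
Log2 FlipFlop minus B6 difference of each member, as log2(CPM + 0.5), within the helper lineage (purple, FlipFlop CD8 minus B6 CD4) and the cytotoxic lineage (gray, FlipFlop CD4 minus B6 CD8), with 95% intervals. In the helper lineage *Tnfrsf4* (0.90), *Tnfsf14* (0.80) and *Tnfrsf9* (0.68) lie right of 0, and in the cytotoxic lineage *Cd40lg* (1.40) lies farthest right.

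Per kb of exon, where genes can be set side by side, the order of levels changed with lineage. In B6 CD4 T cells *Cd27* led with 102 ± 3.9 CPM per kb (SD, n = 3), ahead of *Cd40lg* (60.0 ± 2.1), *Tnfrsf18* (52.6 ± 8.2), *Tnfrsf4* (41.5 ± 4.3) and *Tnfrsf1b* (40.4 ± 4.4), of which *Cd40lg* and *Tnfrsf18* differed by less than the SD of *Tnfrsf18*, and *Tnfrsf4* and *Tnfrsf1b* by less than either SD. In FlipFlop CD8 T cells the order was *Cd27* (112 ± 2.0), *Tnfrsf4* (77.3 ± 5.3), *Tnfrsf18* (64.2 ± 3.8), *Tnfrsf1b* (61.3 ± 4.4) and *Cd40lg* (43.4 ± 3.1), so that *Cd40lg* stood behind the 3 receptors, of which *Tnfrsf18* and *Tnfrsf1b* differed by less than either SD. In B6 CD8 T cells *Cd27* (104 ± 2.7), *Tnfrsf1b* (34.3 ± 1.1), *Tnfrsf18* (31.2 ± 0.87) and *Tnfsf8* (18.3 ± 1.8) led, and *Cd40lg* (0.653 ± 0.28), *Tnfrsf4* (0.553 ± 0.028) and *Tnfsf11* (0.388 ± 0.093) stood last, also in CPM per kb, the first pair of them closer than the SD of *Cd40lg*. *Tnfrsf1b* (29.1 ± 1.0) and *Tnfrsf18* (27.2 ± 0.66) followed *Cd27* (113 ± 1.3) in FlipFlop CD4 T cells as well.

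The other ligands and receptors of the superfamily were counted from lists of 14 and 22 genes. Of the ligands 8 were in the table and 6 passed the filter. Of these 6, 4 had a higher lineage effect and 0 a lower one, beside 19.9% and 19.4% of all tested genes. They were *Fasl*, which kills Fas-bearing cells (2.25 ± 0.12), *Tnf* (1.23 ± 0.08), *Lta*, which encodes lymphotoxin α (0.99 ± 0.08), and *Tnfsf9*, the ligand of 4-1BB (0.76 ± 0.12). The cytokine genes *Tnf* and *Lta* had B6 CD4 means of 15.1 ± 0.40 and 22.5 ± 3.8 CPM, and FlipFlop CD8 means of 15.6 ± 0.10 and 24.3 ± 0.64 CPM (SD, n = 3). Between these groups 0 of the 6 ligands passed the test by limma, where 13.2% of all tested genes were higher and 14.4% lower. *Tnfsf10*, which encodes TRAIL, was the 1 ligand with an unadjusted p under 0.05, at 0.45 ± 0.20 on the log2 scale (unadjusted p = 0.0403, limma adjusted p = 0.102). B6 CD4 replicate 1 stood low for it, at 26.0 CPM against 42.7 and 51.4 CPM in replicates 2 and 3. The FlipFlop CD8 libraries were at 48.6 to 57.0 CPM.

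Of the other receptors 15 were in the table and 14 passed the filter. In the lineage effect 6 of these 14 were higher and 4 lower, beside 19.9% and 19.4% of all tested genes. *Tnfrsf8*, which encodes CD30, the receptor of the ligand of *Tnfsf8*, led with 3.47 ± 0.12 (adjusted p = 5.60e-10). It was at 4.02, 4.26 and 2.57 CPM across B6 CD4 and 11.5, 11.6 and 11.2 CPM in FlipFlop CD8 libraries, against 0 to 0.166 CPM in B6 CD8 and 0.186 to 0.217 CPM in FlipFlop CD4 libraries. The FlipFlop CD8 libraries were thus all above the B6 CD4 ones, by 1.56 ± 0.17 on the log2 scale (adjusted p = 1.03e-04). The next in size were *Tnfrsf19* (1.35 ± 0.15), *Cd40* (0.67 ± 0.15), *Tnfrsf13b*, which encodes TACI (0.66 ± 0.06), *Relt* (-0.49 ± 0.05) and *Tnfrsf10b*, the TRAIL receptor (-0.49 ± 0.10). *Tnfrsf19* and *Cd40* stood at group means under 1.45 CPM.

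**Figure D4:**
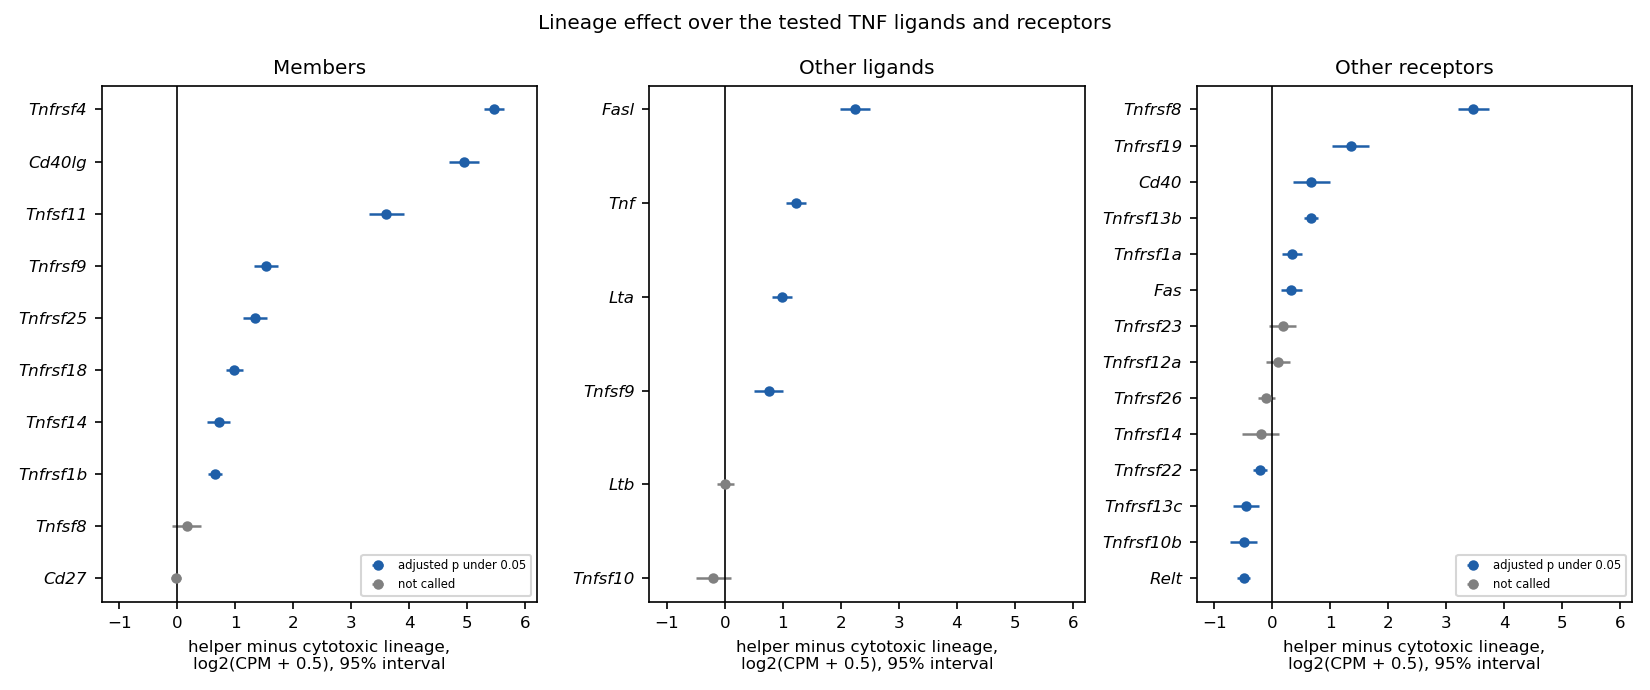
Lineage effect (helper minus cytotoxic lineage, log2(CPM + 0.5)) with 95% intervals for the 10 members, 6 other TNF ligands and 14 other TNF receptors, blue where the adjusted p was under 0.05 and gray otherwise. The members lie between -0.02 (*Cd27*) and 5.46 (*Tnfrsf4*), and among the others *Tnfrsf8* (3.47) and *Fasl* (2.25) lie farthest right.

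As pairs of ligand and receptor, both sides were higher in the helper lineage for *Cd40lg* with *Cd40*, for *Tnfsf9* with *Tnfrsf9*, and for *Tnf* and *Lta* with *Tnfrsf1b*. *Cd40* is mainly a gene of B cells and dendritic cells, and it was at 0.442 to 1.29 CPM in the group means. For *Tnfsf8* with *Tnfrsf8* only the receptor was called. For *Tnfsf14* with *Tnfrsf14*, only the ligand was, *Tnfrsf14* being at -0.20 ± 0.15 (adjusted p = 0.317) and at group means of 19.3 to 22.7 CPM. The lowest mean, of B6 CD4 T cells, held replicate 1 at 11.4 CPM beside 22.7 and 23.9 CPM in replicates 2 and 3. The ligand of OX40, *Tnfsf4*, was at 0.215 to 0.947 CPM in the group means and was not tested. The partners *Tnfsf18*, *Tnfsf15*, *Cd70*, *Tnfrsf11a*, *Tnfrsf11b* and *Ltbr* were not analysed here.

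Downstream of the receptors, 28 genes of TRAF and NF-κB signalling were all tested. In the lineage effect 8 were higher and 5 lower, with a median of 0.0021, beside 19.9% and 19.4% of all tested genes, so the list stood near the background. The largest were *Traf4* (-0.45 ± 0.09), *Birc3*, which encodes cIAP2 (0.35 ± 0.06), *Rel* (0.34 ± 0.11), *Ikbkb* (-0.34 ± 0.05), *Tank* (0.28 ± 0.06) and *Tnfaip3*, which encodes the NF-κB inhibitor A20 (0.27 ± 0.08). None of the 28 reached the size of a called member, the smallest of which was 0.65 for *Tnfrsf1b*. In FlipFlop CD8 against B6 CD4 T cells 3 of the 28 were higher and 2 lower, beside 13.2% and 14.4% of all tested genes.

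Across the 12 libraries, which share groups and therefore lineage, the members' profiles were described by Pearson's r of log2(CPM + 0.5). *Tnfrsf4* was nearest to *Foxp3* (r = 0.995) and *Tnfsf11* to *Prg4* (r = 0.996). *Cd40lg* was nearest to *Myo10* (r = 0.992), *Ly6c1* (r = 0.99) and *H2-Q2* (r = 0.989), of which *Ly6c1* and *H2-Q2* have close paralogs that could share their reads. *Tnfrsf18* was nearest to *Slc35e4* (0.986), *Tnfrsf9* to *Susd2* (0.993), *Tnfrsf1b* to *Pvrig* (0.987), *Tnfrsf25* to *Tspan32* (0.978), *Tnfsf14* to *Itgb1* (0.978) and *Cd27* to *Gm8369* (0.965), each by Pearson's r over 12 libraries. Among themselves *Tnfrsf4* and *Tnfsf11* were closest (r = 0.993), followed by *Cd40lg* and *Tnfrsf4* (r = 0.978). Other close pairs were *Tnfrsf4* and *Tnfrsf9* (r = 0.972), *Cd40lg* and *Tnfrsf25* (r = 0.970), and *Tnfrsf1b* and *Tnfsf14* (r = 0.958). The group mean of *Tnfrsf1b* and of *Tnfsf14* was highest in FlipFlop CD8 T cells, as it was for *Tnfrsf4*, *Tnfrsf18*, *Tnfrsf9*, *Tnfsf8* and *Tnfsf11*. *Cd27* had r between -0.36 and 0.17 with every other member.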

How the data were processed

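T cells were sorted from LN, total RNA was extracted, and paired-end libraries were made with a low-input SMARTer kit. The deposited values are a signal per gene, which the authors made as CPM scaled by TMM factors. The column sums ran from 875501 to 1081793. Reads were aligned to mm10. The methods name STAR, and the submitters' processing notes name Trimmomatic and TopHat. The counting program, its strand setting and the limit of the low-value filter are not given in the sources used here. All 12809 identifiers matched GENCODE M21.

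A gene was tested where 3 or more libraries reached 1 CPM (11595 tested, 1214 left out). One limma model (limma 3.58.1, R 4.3.3) of log2(CPM + 0.5) with 1 mean per group over all 12 libraries, and empirical Bayes with a trend, gave the differences, which understate the change of low genes. p-values were adjusted by Benjamini-Hochberg over all tested genes. The fit was tested on simulated data. No count test was run, since only 84.8 to 86.4% of values above 0 and under 100 CPM lay within 0.001 read of a whole read, and 86.6 to 88.1% within 0.05 read. None of 66 library pairs held identical values. The members and gene lists were chosen with earlier results of these data known. The rule for named genes took the members, up to 6 called genes with the largest lineage effects from each list of other ligands, receptors and signalling genes, and the genes nearest in pattern. Markers, overlapping genes, *Tnfsf10* and the partners of members (such as *Tnfrsf14* and *Tnfsf4*) are named outside that rule, after their values were seen. The gene nearest in pattern to *Tnfsf8* is not reported here. Same-numbered libraries of FlipFlop CD4 and CD8 T cells deviated together (r = 0.443, 0.271 and 0.513 for replicates 1 to 3). Those of B6 CD4 and CD8 T cells had r = 0.184, 0.0887 and 0.352. In the comparisons between strains at least 1 pair was under 0.1. The main fit held no replicate block.

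Alternatives covered the pseudocount, the filter, 2 other scalings, the libraries fitted, the replicate block, the threshold and each library left out.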

Additional observations from a re-analysis of the deposited data

Results flagged for a closer look

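For 8 members the CD4 minus CD8 difference itself differed between B6 and FlipFlop T cells, as it did for 4554 of all 11595 tested genes (19.9% in the direction of these members and 19.4% in the other). This is the lineage effect of the report on another scale, 2 times its size with the same p by construction, and no further test. The B6 difference less the FlipFlop difference, from limma over all 12 libraries, is given on the log2 scale with its SE. It was 10.9 ± 0.16 for *Tnfrsf4* (adjusted p = 5.13e-13), 9.88 ± 0.24 for *Cd40lg* (adjusted p = 3.18e-11) and 7.21 ± 0.28 for *Tnfsf11* (adjusted p = 1.18e-09). The other receptors followed with 3.05 ± 0.19 for *Tnfrsf9* (adjusted p = 6.12e-08), 2.68 ± 0.18 for *Tnfrsf25* (adjusted p = 1.82e-07), 1.96 ± 0.13 for *Tnfrsf18* (adjusted p = 1.82e-07) and 1.30 ± 0.12 for *Tnfrsf1b* (adjusted p = 1.99e-06). *Tnfsf14* was at 1.43 ± 0.18 (adjusted p = 4.26e-05). Groups held 3 libraries each, so single libraries were not tested for standing apart.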

How the results depend on the processing

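Of the members' values under the alternatives, 1133 kept their direction and their side of the threshold, 18 became called, 17 lost the call and 12 changed sign. The sign changed with columns rescaled to the same sum for *Cd27* in B6 (0.037), FlipFlop (-0.16) and the lineage effect (0.10), for *Tnfrsf25* in FlipFlop CD8 against B6 CD4 (0.011) and for the *Tnfrsf4* coreceptor effect (-0.023), and for the last with a pseudocount of 1 (-0.061). Leaving out 1 library gave -0.32 to 0.023 for *Tnfsf8* in B6, -0.054 to 0.00035 for *Cd27* in B6, -0.019 to 0.0085 for the *Cd27* and -0.00061 to 0.090 for the *Tnfrsf4* coreceptor effect. The comparisons below are in the order B6, FlipFlop, FlipFlop CD8 against B6 CD4, FlipFlop CD4 against B6 CD8, lineage and coreceptor. At 5-fold and unadjusted p under 0.05, 182, 256, 52, 62, 187 and 2 genes and 3, 3, 0, 0, 3 and 0 members were called. At an adjusted p under 0.05 and 2-fold, 889, 1050, 504, 224, 922 and 74 genes and 5, 7, 0, 1, 5 and 0 members were called. Only the groups compared gave 1500 genes for FlipFlop CD8 against B6 CD4, and genes averaging at least 5 CPM gave 301 for coreceptor. Without 1 library the genes called were 2275 to 3210, 2836 to 4419, 1654 to 3751, 515 to 1566, 4007 to 5229 and 396 to 604, and members 6 to 7, 8 to 9, 4 to 7, 3 to 4, 8 to 9 and 4 to 5. This rescaling shifted the median of all genes by -0.173 in FlipFlop, 0.164 in FlipFlop CD8 against B6 CD4 and 0.120 in lineage. The share of calls that were higher went from 57.3 to 69.7% in B6, 49.0 to 20.8%, 47.8 to 83.9%, 50.6 to 75.6% in lineage and 31.1 to 16.2% in coreceptor. The replicate block joined same-numbered libraries and changed no member call in FlipFlop CD4 against CD8. Elsewhere it made calls of *Tnfrsf1b* in B6 (adjusted p = 0.0311) and *Tnfsf11* in FlipFlop CD4 against B6 CD8 (0.0445). It also made calls of the *Tnfsf8* lineage (0.0404) and coreceptor effects (0.0122). The cause of these changes was not tested.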
